A study of Danio rerio with 6 samples.

Results

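The vertebrate hindbrain is divided along its length into segments called rhombomeres, and 7 transcription factor genes that regulate this segmentation without belonging to the Hox family were followed here. They are egr2a, egr2b, mafba, hnf1ba, irx7, meis1b and meis3. They were taken by symbol from the deposited table of gene counts, in which each had 1 entry among 32057 genes. The rule that picks them reads gene names and no measured value, although it was drawn up with earlier results of these data known. All 7 passed the filter on low counts. Messenger RNA had been sequenced from individual zebrafish (Danio rerio), each a whole embryo collected when 10 somites, the paired blocks of trunk mesoderm, had formed. The 2 groups were 3 wild-type embryos (genotype label WT) and 3 Pea3 triple mutants (genotype label 3etv), with no treatment recorded for either. Pea3 genes encode ETS transcription factors that act downstream of fibroblast growth factor (FGF) signalling, and the labels do not name the 3 mutated genes. Each library came from 1 embryo, so a change in a gene can reflect fewer cells that express it or less RNA in each cell, and these cannot be told apart. Clutch, parental line and sequencing batch are not given in the labels, so genotype cannot be told apart from them.

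Rhombomeres are set up by a cascade of regulators. In zebrafish, Egr2b (also called Krox20) marks and specifies rhombomeres 3 and 5, and Mafba (valentino) is needed for rhombomeres 5 and 6. Hnf1ba (vhnf1) acts upstream of both in the posterior hindbrain, where it works together with FGF signals from rhombomere 4 to turn on mafba and egr2b. Irx7 lies on the anterior side and meets the hnf1ba domain at the border between rhombomeres 4 and 5, across which the genes repress each other. Meis1b and Meis3 are TALE homeodomain proteins that bind DNA with Pbx and Hox proteins. Several of these genes are also active elsewhere in the embryo, hnf1ba in endoderm and kidney primordia, mafba and egr2b in some neural crest cells, and meis1b in many tissues.

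Gene counts per library lay between 22446699 and 28841169 in WT and between 18484238 and 21865288 in 3etv. The share of reads matched to no annotated feature was 52.8% to 53.6%, and 39.7% to 41.7% of reads were assigned to genes. Of the Pea3 family, etv5b and etv5a had log2 fold changes of -1.69 and -1.52 in the 3etv libraries (edgeR adjusted p 1.89e-08 and 1.82e-08), and etv1, at low counts, one of -1.33 (0.0082). The fourth family gene, etv4, was lower in each 3etv embryo but missed the threshold (-0.52, edgeR adjusted p 0.057). All 7 sets of tissue markers fixed for neural tube, brain, neural crest, muscle, epidermis, blood, and pronephros with endoderm were detected, with 51 of 52 genes tested, which fits the label of a whole embryo. Nothing in the labels says that embryos of 1 group came from separate clutches. The p-values set the difference between groups against variation between these embryos, which may not include variation between clutches.

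Of the 7 hindbrain regulators, 4 fell in 3etv embryos, 1 rose and 2 did not pass the test. Both egr2 genes fell, egr2b to 67.6% of its WT level and egr2a to 57.4%. The cofactor genes meis3 and meis1b fell less, to 79.2% and 87.1%. The anterior gene irx7 rose to 123.3% of WT. The posterior genes mafba and hnf1ba stood at 92.7% and 100.1%. Across the transcriptome 5801 of 18533 tested genes (31.3%) passed the same threshold, an adjusted p under 0.05 in edgeR's quasi-likelihood test, 15.9% higher and 15.4% lower in 3etv. The count of 5 calls fell to 1 without WT replicate 2, to 3 without WT replicate 3 and to 2 without 3etv replicate 2, with egr2b called in each of these fits. Of all tested genes, the same fits called 4385 of 18976, 4719 of 18976 and 4247 of 19084, in that order. Without WT replicate 2 the called share of the 7 was thus below that of all tested genes. The median log2 fold change of the 7 was -0.20, against 0.0035 over all tested genes. For 5 of the 7 the ranges of the groups were apart, and this was so for 45.1% of all tested genes.

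**Figure D1:**
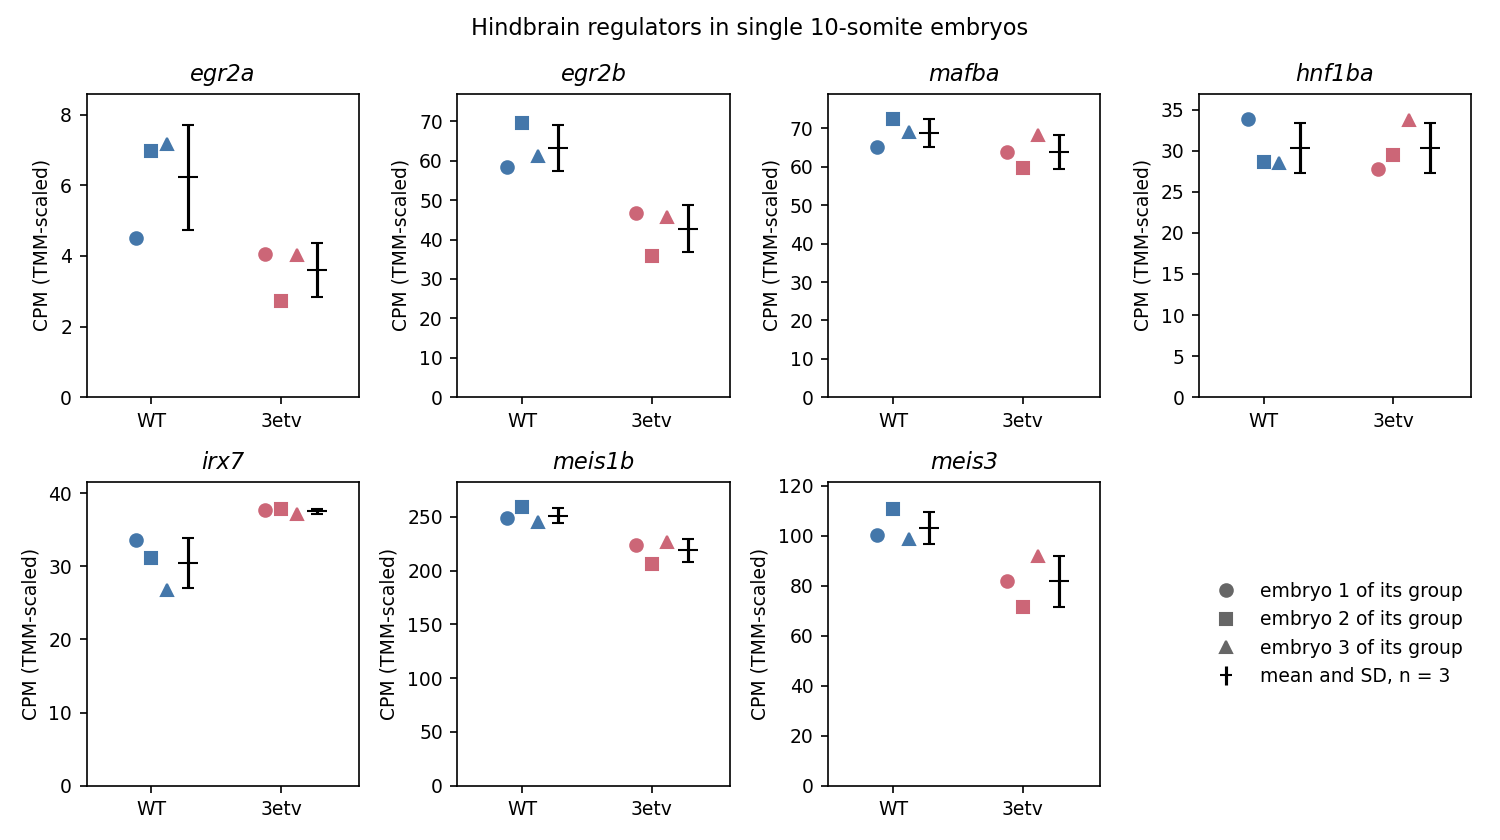
Level of each hindbrain regulator in CPM (TMM-scaled, linear axis from 0) in 3 WT (blue) and 3 3etv (red) embryos, with marker shapes for replicate numbers and black bars for mean and SD. The 3etv embryos lie below the WT embryos for egr2a, egr2b, meis1b and meis3, above them for irx7, and overlap them for mafba and hnf1ba.

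The Krox20 gene egr2b (ENSDARG00000042826) had 58.4, 69.7 and 61.2 CPM in WT replicates 1 to 3, and 46.8, 35.8 and 45.7 CPM in 3etv replicates 1 to 3, an order kept for all genes below. CPM here are counts brought to 1 library size by TMM scaling. The highest 3etv embryo lay well under the lowest WT embryo. The group means were 63.1 ± 5.84 and 42.8 ± 6.04 CPM (SD, n = 3 embryos each), and the log2 fold change was -0.56 (SE 0.10, edgeR adjusted p 0.0014). The fall kept its direction and passed the threshold in each of 14 alternative fits, with log2 fold changes from -0.63 to -0.45. Among all tested genes, 75.9% had a smaller absolute log2 fold change.

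Its paralogue egr2a (ENSDARG00000044098), also expressed in the developing hindbrain, was represented by few reads. It had 101, 204 and 180 counts in WT and 76, 59 and 73 in 3etv, equal to 4.505, 6.98 and 7.19 CPM against 4.07, 2.71 and 4.03 CPM. The groups did not overlap, but the lowest WT embryo came close to 2 of the 3etv embryos. Means were 6.22 ± 1.49 and 3.60 ± 0.77 CPM, and the log2 fold change was -0.80 (SE 0.21, edgeR adjusted p 0.012). Its 95% interval reached from -1.26 to -0.34, the widest of the 7 genes. The call was lost on leaving out WT replicate 2, WT replicate 3 or 3etv replicate 2, with edgeR adjusted p-values of 0.053, 0.051 and 0.062.

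For mafba (ENSDARG00000017121), the gene of rhombomeres 5 and 6, the WT embryos had 65.1, 72.5 and 69.1 CPM and the 3etv embryos 63.8, 59.6 and 68.4 CPM. The ranges overlapped, with 1 of the 3etv embryos above the lowest WT embryo. The log2 fold change was -0.11 (SE 0.072) and missed the threshold (edgeR adjusted p 0.27). Its 95% interval from -0.27 to 0.046 corresponds to between 83.2% and 103.2% of the WT level. A fall as large as that of egr2b lies outside this interval.

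The posterior regulator hnf1ba (ENSDARG00000006615) had 33.9, 28.6 and 28.5 CPM in WT and 27.8, 29.5 and 33.7 CPM in 3etv. Both groups covered almost the same range, with means of 30.3 ± 3.09 and 30.3 ± 3.04 CPM. The log2 fold change was 0.0013 (SE 0.098, edgeR adjusted p 0.99), with a 95% interval from -0.21 to 0.21, so the level in 3etv lay between 86.5% and 115.8% of WT. Its sign turned with the scaling of the libraries and carries no direction.

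On the anterior side, irx7 (ENSDARG00000002601) had 33.5, 31.1 and 26.8 CPM in WT and 37.7, 37.8 and 37.1 CPM in 3etv. Every 3etv embryo exceeded every WT embryo, and the mutants lay within 1 CPM of each other while the WT embryos were spread more widely (coefficient of variation 0.961% against 11.2%). Means were 30.5 ± 3.42 and 37.5 ± 0.36 CPM, and the log2 fold change was 0.30 (SE 0.088, edgeR adjusted p 0.019). Leaving out WT replicate 2, WT replicate 3 or 3etv replicate 2 ended the call, with adjusted p-values of 0.051, 0.099 and 0.059, and left the direction in place.

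Of the TALE cofactors, meis3 (ENSDARG00000002795) had 100.1, 110.5 and 98.5 CPM in WT and 82.0, 71.3 and 91.9 CPM in 3etv. The groups did not overlap, and the 3etv embryos were spread over a wider range than the WT embryos. The log2 fold change was -0.34 (SE 0.087, edgeR adjusted p 0.010). Without WT replicate 2 the adjusted p was 0.0502, just past the threshold.

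Its relative meis1b (ENSDARG00000012078) varied least among WT embryos, with 248.9, 258.8 and 245.4 CPM, and had 223.5, 206.5 and 226.4 CPM in 3etv. Each 3etv embryo lay below each WT embryo, by a margin small in proportion to the level. The log2 fold change was -0.20 (SE 0.059, edgeR adjusted p 0.020), a size exceeded by the majority of tested genes, since 42.9% had a smaller one. The call was lost without WT replicate 2 (adjusted p 0.094), without 3etv replicate 2 (0.095) and with the replicate number as a block (0.084).

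**Figure D2:**
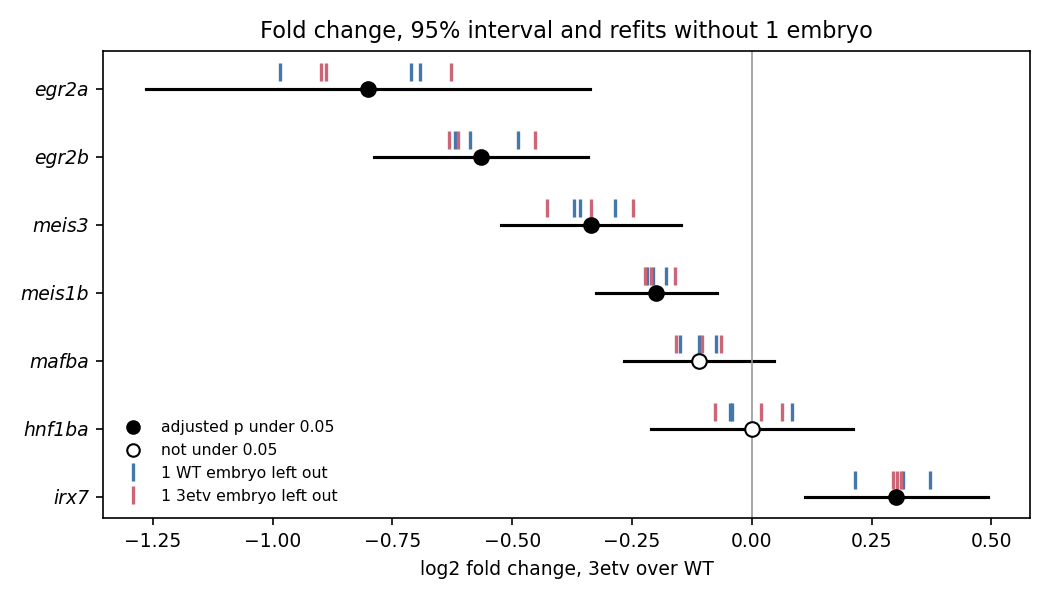
Log2 fold change of 3etv over WT (horizontal axis) for the 7 regulators, with black lines for 95% intervals, filled circles for an edgeR adjusted p under 0.05, and coloured ticks for refits that each leave out 1 WT (blue) or 1 3etv (red) embryo. The intervals of mafba and hnf1ba include 0, and the refits of hnf1ba alone fall on both sides of 0, from -0.077 to 0.085.

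Genes that meet along the hindbrain axis were then set against each other inside each library, where the scaling of libraries cancels. Counts are not corrected for transcript length, so the size of such a ratio says nothing of which gene is more abundant, and only its shift between embryos is described. The ratio of egr2b to mafba counts was 0.897, 0.961 and 0.886 in WT and 0.734, 0.601 and 0.668 in 3etv. These ranges were apart, with mean log2 ratios of -0.13 ± 0.063 and -0.59 ± 0.14, a difference of -0.46. The ratio of hnf1ba to irx7, the pair that meets at the border of rhombomeres 4 and 5, was 1.01, 0.921 and 1.06 in WT and 0.737, 0.781 and 0.908 in 3etv. It also did not overlap between groups, with the highest 3etv embryo close to the lowest WT embryo and a difference in mean log2 ratio of -0.31.

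Paralogue pairs gave overlapping ratios. The ratio of egr2b to egr2a was 12.97, 9.98 and 8.52 in WT and 11.5, 13.2 and 11.3 in 3etv, so both egr2 genes were lower without a separation of their ratio. For meis3 to meis1b it was 0.402, 0.427 and 0.401 in WT against 0.367, 0.345 and 0.406 in 3etv. The 4 ratios are given as a description with no test. They are formed from the same counts as the levels above, so they are no separate result. For single genes the groups were apart in 45.1% of those tested, and no such share was computed for gene pairs. With 3 against 3 embryos, the smallest p of an exact permutation test is 0.1.

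**Figure D3:**
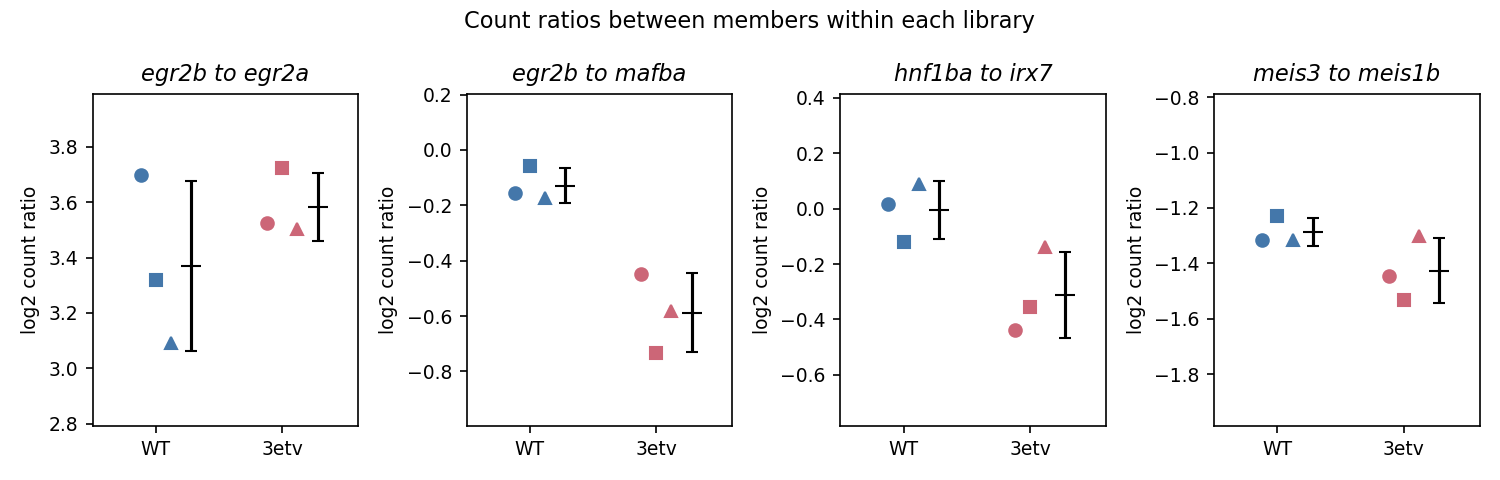
Log2 ratio of the counts of 2 regulators in the same library (vertical axes, each spanning the same number of log2 units) for 3 WT (blue) and 3 3etv (red) embryos, with mean and SD in black. The egr2b to mafba and hnf1ba to irx7 ratios were lower in every 3etv embryo than in any WT embryo, whereas the egr2b to egr2a and meis3 to meis1b ratios overlapped.

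Markers of neural tissue as a whole, called pan-neural here, were compared in the same way. The summed level of 10 pan-neural genes lay between 1040 and 1083 CPM in WT and between 937.2 and 1017 CPM in 3etv, a mean change of -6.94%, with 0 of the 10 genes called higher, 4 called lower and 6 not passing. The 4 lower calls made up 40% of the list, against 31.3% of all tested genes called. The groups were apart for 5 of the 10, against 45.1% of all tested genes. The median log2 fold change of the 10 was -0.11 and 4 of the 10 values were above 0. The lowest adjusted p-values were those of sox3 and nes, which mark neural progenitors, at -0.35 and -0.54 (edgeR adjusted p 7.51e-04 and 0.0017). The highest value was that of ncam1a, a neural adhesion gene named after its value was seen, at 0.35 (edgeR adjusted p 0.091), with every 3etv embryo above every WT embryo. Without WT replicate 2, WT replicate 3 or 3etv replicate 2, the lower calls numbered 2. In the fits without WT replicate 1 and without WT replicate 2, 1 gene was called higher. The sum is weighted by level, so a few genes set its scale. In WT, sox19a had 379 and sox3 228.1 of the mean sum of 1063 CPM. Relative to the pan-neural sum, the mean log2 difference between 3etv and WT was -0.68 for egr2a, -0.46 for egr2b, -0.24 for meis3 and -0.095 for meis1b. It was -0.0048 for mafba, 0.10 for hnf1ba and 0.41 for irx7. On this scale the groups did not overlap for the 5 genes called above, and overlapped for mafba and hnf1ba, while 45.3% of all tested genes did not overlap. The gap was narrow for egr2a, at 0.00423 of the pan-neural sum in the lowest WT embryo against 0.0040 in the highest 3etv embryo. It was also narrow for meis3, at 0.094 against 0.0907. For meis1b the gap was small, at 0.2336 against 0.2234, but wide beside the SDs of the log2 ratios, 0.017 in WT and 0.013 in 3etv.

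Markers of other tissues, among them sites where some of the 7 genes are also active, were compared as well. Their part in the results was not tested. Across the 7 tissue lists, 58.8% of tested genes were called, against 31.3% of all tested genes. The 9 markers of pronephros and endoderm, where hnf1ba is active, summed to between 123.7 and 144.8 CPM in WT and between 157.9 and 177.8 CPM in 3etv, with 5 of 8 tested genes called higher and 1 lower. The 5 became 2 without WT replicate 2 and 3 without WT replicate 3 or 3etv replicate 2. The lower call was the pronephros marker cdh17 (-0.84, edgeR adjusted p 0.0017). Other pronephros markers were mixed. Of these, lhx1a was called higher (0.45, adjusted p 0.034), while pax8 (0.34, 0.051) and pax2a (-0.090, 0.42) did not pass. The listed factors foxa3 and foxa2 were named, like the other pairs below, for the lowest adjusted p in their list. They rose by 1.21 and 0.67 on the log2 scale (edgeR adjusted p 4.26e-05 and 2.96e-04). The remaining higher calls were hnf4a (1.66, adjusted p 0.015) and sox17 (1.28, 0.030), the latter at 10 to 40 counts. For hnf4a, 3etv replicate 1 had 2.30 CPM, close to WT at 1.72 to 2.05 CPM. In 3etv replicates 2 and 3 it had 7.68 and 7.46 CPM. The lowest marker, sox32, had at most 0.25 CPM on average in either group. Neural crest markers, 7 in number, summed to between 613.5 and 653.5 CPM in WT and between 483.2 and 580.3 CPM in 3etv, with 4 called lower and 0 higher. Of these, crestin and tfap2a fell by 1.68 and 0.38 (adjusted p 9.44e-06 and 6.25e-04). The sum, on average 634.1 CPM in WT, rests mainly on snai1b, tfap2a and sox9b, at 190, 161.7 and 136.1 CPM. It says little of low markers such as crestin, at 9.59 CPM. Neither snai1b nor sox9b passed (-0.13 and -0.038, edgeR adjusted p 0.43 and 0.69). All 7 somite muscle markers were called lower, desma by 1.51 and tnnc2 by 0.77, and their sum lay between 432.1 and 495.5 CPM in WT and between 235.3 and 294.5 CPM in 3etv. In forebrain and midbrain, 2 of 8 markers were called higher and 2 lower, with rx3 rising by 1.02 and foxg1a at -0.53. The summed level of this set overlapped between groups. The epidermal set had 1 of 5 called higher (epcam, 0.19) and 2 lower (among them krt4, -0.25), and leaving out any 1 embryo left 1 lower call and between 0 and 2 higher. The blood and vessel set had 1 of 6 higher (lmo2, 0.53) and 1 lower (gata1a, -0.59), with 2 higher on leaving out WT replicate 1 or 3etv replicate 1. The called share of this set, 33.3%, was near that of all tested genes, and its summed level overlapped between groups.

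The other genes of the hindbrain pathway were compared through 4 lists. They named 41 genes, of which 39 symbols were in the table, with 40 entries because meis2a had 2. Of the 40 entries tested, 18 were called lower and 5 higher in 3etv and 17 did not pass, 57.5% called against 31.3% of all genes. The median log2 fold change was -0.18.

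Hox genes of paralogue groups 1 to 4, which give rhombomeres and the adjoining spinal cord their identity, were called lower in 9 of 12 cases and higher in 0, with a median log2 fold change of -0.54. Levels of hoxb3a, a gene active in rhombomeres 5 and 6, were 126.7, 131.7 and 129.1 CPM in WT and 82.1, 75.6 and 84.0 CPM in 3etv, far apart beside the spread in either group (log2 fold change -0.68, edgeR adjusted p 5.79e-06). The other Hox genes of lowest adjusted p were hoxd3a (-0.77), hoxc4a (-1.10), hoxa2b (-0.79), hoxb1b (-0.44) and hoxb4a (-0.62), with adjusted p-values from 1.53e-05 to 9.12e-04. In contrast, hoxb1a, the identity gene of rhombomere 4, had means of 10.0 ± 0.71 and 10.03 ± 0.25 CPM and a log2 fold change of 0.0050 (adjusted p 0.98). The other Hox genes that did not pass, hoxa1a (-0.12, adjusted p 0.71) and hoxc1a (-0.16, 0.18), are also of paralogue group 1. In that group only hoxb1b was called lower.

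Cofactors and paralogues went both ways, with 4 of 13 entries called higher and 4 lower and a median of 0.014. The lower calls were 2 without WT replicate 2 or 3etv replicate 2. The mafba paralogue mafbb had 11.0, 14.3 and 15.5 CPM in WT and 7.66, 4.88 and 7.46 CPM in 3etv, without overlap (log2 fold change -1.04, edgeR adjusted p 9.69e-04). The hnf1ba paralogue hnf1bb had a log2 fold change of 0.031 (adjusted p 0.91). Other Meis genes were lower, with log2 fold changes of -0.56 for meis1a (adjusted p 0.0014) and of -0.19 and -0.30 for the 2 meis2a entries (0.046 and 0.015). Their Pbx partners did not pass, with -0.19 for pbx4 (adjusted p 0.059) and -0.022 for pbx2 (0.88).

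The largest change in the 4 lists was a rise of egr1, the immediate early relative of the egr2 genes, from 3.30, 2.40 and 1.88 CPM in WT to 15.9, 24.0 and 20.0 CPM in 3etv. Its log2 fold change, 2.99 (SE 0.20, edgeR adjusted p 1.35e-06), had the opposite sign to those of egr2a and egr2b. Of the listed Egr corepressor genes, nab1b and nab2 rose as well, by 0.79 and 0.83 on the log2 scale (adjusted p 0.0018 and 0.0037). The remaining Nab gene, nab1a, did not pass, at 0.014 (adjusted p 0.98) and 26 to 63 counts. The Nab genes were named after their values were seen.

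Of the signals that pattern the hindbrain, 1 of 6 was called (2 without 3etv replicate 1), or 16.7% against 31.3% of all tested genes. With 6 genes, this count is not read as a difference from that share. Their median log2 fold change was -0.057. The FGF ligand genes fgf3 and fgf8a, expressed in rhombomere 4 and at the midbrain-hindbrain boundary among other sites, had log2 fold changes of -0.12 and 0.13 (edgeR adjusted p 0.41 and 0.16). Neither the retinoic acid synthesis gene aldh1a2 (-0.19, adjusted p 0.41) nor the breakdown gene cyp26a1 (0.011, 0.94) passed. The gene that did was cyp26c1, a breakdown enzyme of the anterior hindbrain, which fell from 68.2 ± 2.91 to 52.1 ± 5.89 CPM (-0.39, adjusted p 0.0031) and is named as the sole call in its list. Among Eph, ephrin and boundary genes, 4 of 9 were called lower and 1 higher, with 2 lower on leaving out WT replicate 2, 3etv replicate 1 or 3etv replicate 2. The anterior hindbrain gene gbx2 fell by 0.58 (adjusted p 7.65e-04). The call in the other direction was rfng, a Notch modifier of rhombomere boundaries, at 0.41 (0.0024), named after its value was seen. Neither epha4a nor efnb3b passed (0.13 and 0.23, adjusted p 0.0955 and 0.0988), but every 3etv embryo lay above every WT embryo. Both were also named after their values were seen.

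**Figure D4:**
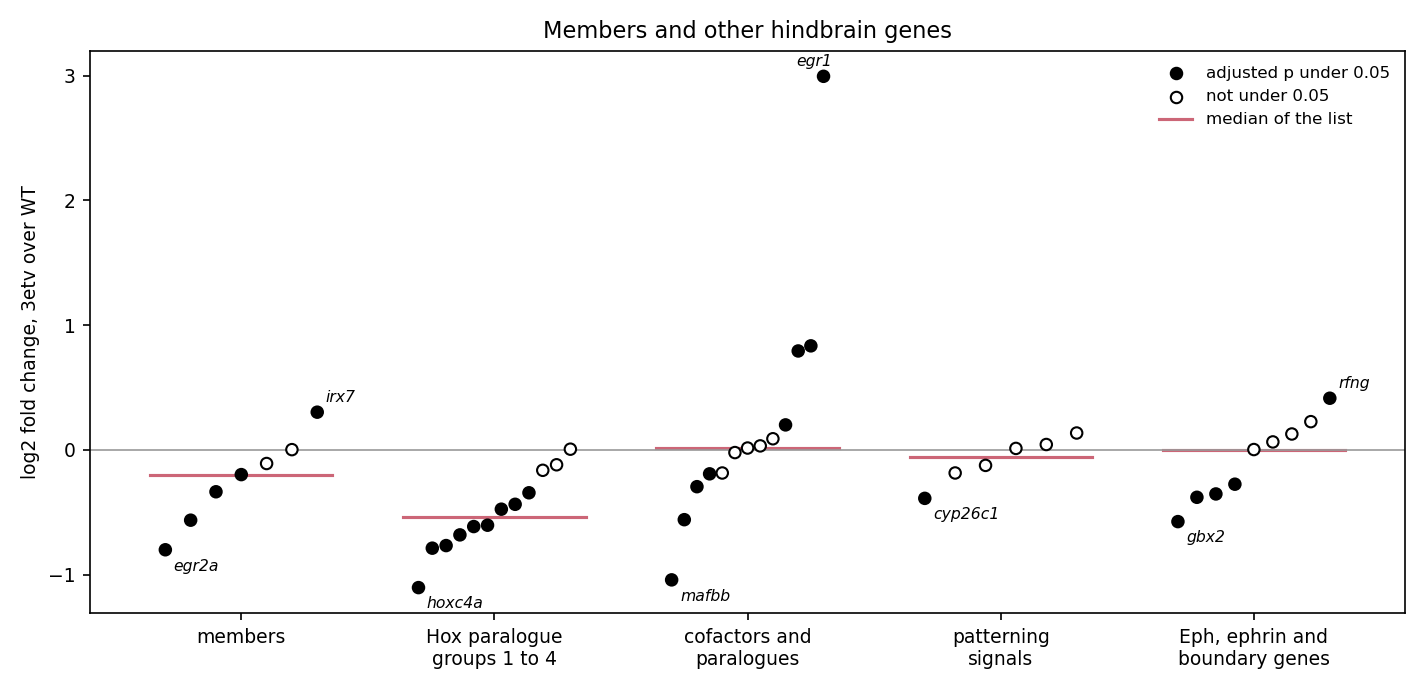
Log2 fold change of 3etv over WT (vertical axis) for the 7 regulators and for 4 lists of other hindbrain genes, with genes ordered by value within a list, filled circles for an edgeR adjusted p under 0.05 and red lines for medians. The Hox list has its median at -0.54 and no call above 0, and egr1 stands at 2.99 in the list of cofactors and paralogues.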

How the data were processed

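The authors deposited 1 table of raw counts per Ensembl gene, made from poly-A, strand-specific libraries of single embryos per the labels' protocols. STAR, HTSeq and the build GRCz11 are named in the submitters' processing notes, without versions. The annotation release and strand setting are not given in the sources used here. The header lacks 1 tab, so columns were matched by the names it holds, each equal to 1 sample title. Summary entries for unassigned reads were left out of tests, and between 5.12% and 6.38% of reads were placed at more than 1 position. Reads shared by paralogues were not examined.

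Counts were analysed in R 4.3.3 with edgeR 4.0.16 (filterByExpr, TMM, robust quasi-likelihood F test, genotype as sole term), with p-values adjusted by the Benjamini-Hochberg method over 18533 genes. CPM are TMM-scaled. SE was derived from the size of the log2 fold change and the F statistic, and 95% intervals use the test's degrees of freedom. DESeq2 1.42.0 and limma 3.58.1 served as alternatives. In simulated counts (18243 genes, trended dispersions), recovery by edgeR was 61.5% for 1.5-fold and 83.6% for 2-fold changes, with 3 false among 164 calls. Far fewer genes were changed there than were called in the data, so these rates need not hold for the main test. Libraries of a group differed beyond sampling noise (chi-square per degree of freedom at least 3.43), so each counted as 1 sample. No sequence was printed and no position given.

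Members and lists were chosen with earlier results of these data known. Named genes are the 7 members, the 10 other hindbrain genes of lowest adjusted p, 13 relatives and signals whatever their p, the 2 genes of lowest adjusted p per tissue list, and the 3 genes most like egr2b and mafba. Outside this rule, the Pea3 genes were named as a check of the labels. Those named after their values were seen are cyp26c1, nab1a, nab1b, nab2, rfng, epha4a, efnb3b, ncam1a, sox19a, snai1b, sox9b, sox32, cdh17, lhx1a, pax2a and pax8. So are hnf4a, sox17, hoxa1a and hoxc1a. The listed hoxa3a and meis2b had no entry by symbol.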

Additional observations from a re-analysis of the deposited data

How the results depend on the processing

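The call of egr2b and the failure of mafba and hnf1ba to pass held in all 14 alternatives. Leaving out 1 embryo gave log2 fold changes from -0.98 to -0.63 for egr2a, from 0.21 to 0.37 for irx7, from -0.22 to -0.16 for meis1b, from -0.43 to -0.25 for meis3 and from -0.077 to 0.085 for hnf1ba. These fits called between 1 and 5 of the 7 genes, 1 without WT replicate 2, 2 without 3etv replicate 2 and 3 without WT replicate 3, with fewer embryos behind each fit. Of all tested genes, they called between 4247 of 19084 and 5721 of 18984. At an adjusted p under 0.01, 1 of the 7 (egr2b) and 3460 of 18533 tested genes were called. The called share of the 7 was then not above that of all tested genes. The sign of hnf1ba turned with RLE scaling (-0.0012), DESeq2 (-0.0013) and no low-count filter (-0.010), and the cause was not tested. Fits with the replicate number as a block called 4 of the 7 and 4524 of 18533 tested genes. The call lost was meis1b (log2 fold change -0.20, adjusted p 0.084). Deviations of same-numbered embryos correlated at -0.132, -0.0302 and -0.0992, so the numbers show no pairing. Thinning to the smallest library, an alternative chosen after seeing the data, left 5 calls among the 7, with 5472 of 18071 tested genes called. Hox calls were 8 or 9 lower and 0 higher in every alternative, while the medians of the cofactor and the Eph and boundary lists changed sign. With the block, lower calls were 2 in each of these lists and 2 in the pan-neural list, and higher calls in pronephros and endoderm were 3. Depth limits egr2a most, at 59 to 204 counts.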

Other observations

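Some embryos held the same rank in their group for several of the 7 genes, and no such share was computed over all tested genes. The 3etv replicate 2 had the lowest level of its group for 5 of the 7 (egr2a, egr2b, mafba, meis1b and meis3), and WT replicate 2 had the highest of its group for 4 (egr2b, mafba, meis1b and meis3). Likewise, WT replicate 3 had the lowest level of its group for 4, and 3etv replicate 3 the highest of its group for 4. The 3etv replicate 2 also had the lowest summed level in its group for the Hox, pan-neural, neural crest and somite muscle lists, at 314.0, 937.2, 483.2 and 235.3 CPM. So it did for the cofactor, patterning signal, Eph and boundary, and epidermis lists, at 687.2, 223.9, 681 and 8274 CPM. Its sums were the highest of the group for pronephros and endoderm, at 177.8 CPM, and for forebrain and midbrain, at 357.5 CPM. For blood and vessel, at 168.6 CPM, it was neither the lowest nor the highest of its group. Its rank thus differed between lists, and these sums are weighted by level.

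Over the 6 embryos, the profile of egr2b in log2 CPM was most like those of rgmd (Pearson's r 0.9980), supv3l1 (0.9968) and mdka (0.9943) among 14243 other genes. Of these, rgmd and mdka were lower in 3etv, with log2 fold changes of -0.25 and -0.29 (edgeR adjusted p 0.0090 and 0.0059), and supv3l1 did not pass (-0.20, adjusted p 0.12). For mafba the nearest profiles were nos1apa (0.9993), kdrl (0.9922) and fsd1 (0.9885), none of which passed (edgeR adjusted p 0.34, 0.61 and 0.48). These likenesses are descriptions over 6 embryos that share a genotype in groups of 3.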
